A study of Mus musculus with 8 samples.

Results

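The genes described here are the circadian clock genes of the liver, with the transcription factors that carry the rhythm onward and a group of rhythmic output genes. Members were taken by name from a list of 29 symbols, of which 28 were among the 19642 genes of the count table. The name Nocr matched no row of the table. A filter on low counts left 14214 genes, and 27 of the 28 members were among them. Bhlhe41 did not pass, with 6, 3, 8 and 7 counts in WT livers 1 to 4 and 16, 2, 11 and 4 counts in N-LKO livers 1 to 4.

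The livers came from male C57BL6 mice fed a chow diet (CD), 4 WT and 4 N-LKO, with 1 RNA-seq library from each. N-LKO mice carry loxP-flanked NgBR (gene symbol Nus1) that was deleted by Cre recombinase under the albumin promoter, which is active in hepatocytes, so other cells of the liver can keep the gene. NgBR is a subunit of the enzyme that makes the lipid carrier dolichol. The sample titles give 8 weeks of diet and the treatment entries give 16 weeks. The age of the mice, the time of day and the feeding state at collection are not given in the sources used here, so no liver can be placed on a time axis.

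The clock is a feedback loop of transcription that runs in nearly every cell. Arntl (also called Bmal1) pairs with Clock or Npas2 and binds E-boxes in the genes of its own repressors, the Per and Cry families, and in Nr1d1, Nr1d2 and Dbp. The nuclear receptors Nr1d1 and Nr1d2 repress, and Rora activates, Arntl and other genes with ROR elements. Dbp, Tef and Hlf activate genes with D-boxes, and Nfil3 represses them. In mouse liver the mRNAs of Arntl, Clock, Npas2 and Nfil3 are high when those of Nr1d1 and Dbp are low, and the Per mRNAs peak later than Nr1d1. Cry1 peaks late and is grouped here with Arntl. Many metabolic genes of the liver follow this cycle.

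Nus1 checked the genotype. It averaged 88.2 ± 4.14 CPM (counts scaled to library size) in WT and 36.7 ± 2.57 CPM in N-LKO (SD, n = 4), with an adjusted p of 3.06e-05 from edgeR. Total counts per library ranged from 15430519 to 18412201 in WT and from 14688404 to 18585412 in N-LKO. The hepatocyte markers Alb, Apoa1, Apob, Ttr, Fgb and Cps1 summed to 81605 to 104245 CPM in WT and 80431 to 97332 CPM in N-LKO livers.

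No clock gene passed the test of edgeR in the comparison of N-LKO with WT livers. The N-LKO mean of Nr1d1, a repressor within the loop, was 44.3% of the WT mean and that of Gys2, the liver glycogen synthase, 69.7%, while Wee1, a mitotic kinase, was at 178% and Nampt, an enzyme of NAD salvage, at 124%. By the quasi-likelihood test of edgeR, with Benjamini-Hochberg adjustment over every gene tested, 0 of 27 members had an adjusted p under 0.05, where 1.04% of all genes did (0.823% higher and 0.218% lower in N-LKO). At an unadjusted p under 0.05 there were 8 members (29.6%), where 12.8% of all genes tested stood. These were Nr1d1, Gys2 and Dbp, lower in N-LKO as were 5.9% of all genes, and Wee1, Nampt, Cry1, Rora and Noct, higher in N-LKO as were 6.87%. DESeq2 called 3 members, Nr1d1, Wee1 and Gys2, against a background of 2.43% of all genes it tested. The limma-voom test called 0 members against 0.886%. The values of the genotypes did not overlap for 4 members (14.8%), Nr1d1, Wee1, Nampt and Rora, where 7.52% of all genes showed no overlap. Of these, Nr1d1 was lower (3.32% of all genes) and the other 3 were higher (4.2%). Below, log2 change stands for the log2 fold change of N-LKO over WT, given with its standard error (SE) from edgeR. It was positive for 20 members and negative for 7, with a median of 0.26, against -0.0033 over all genes tested.

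**Figure D1:**
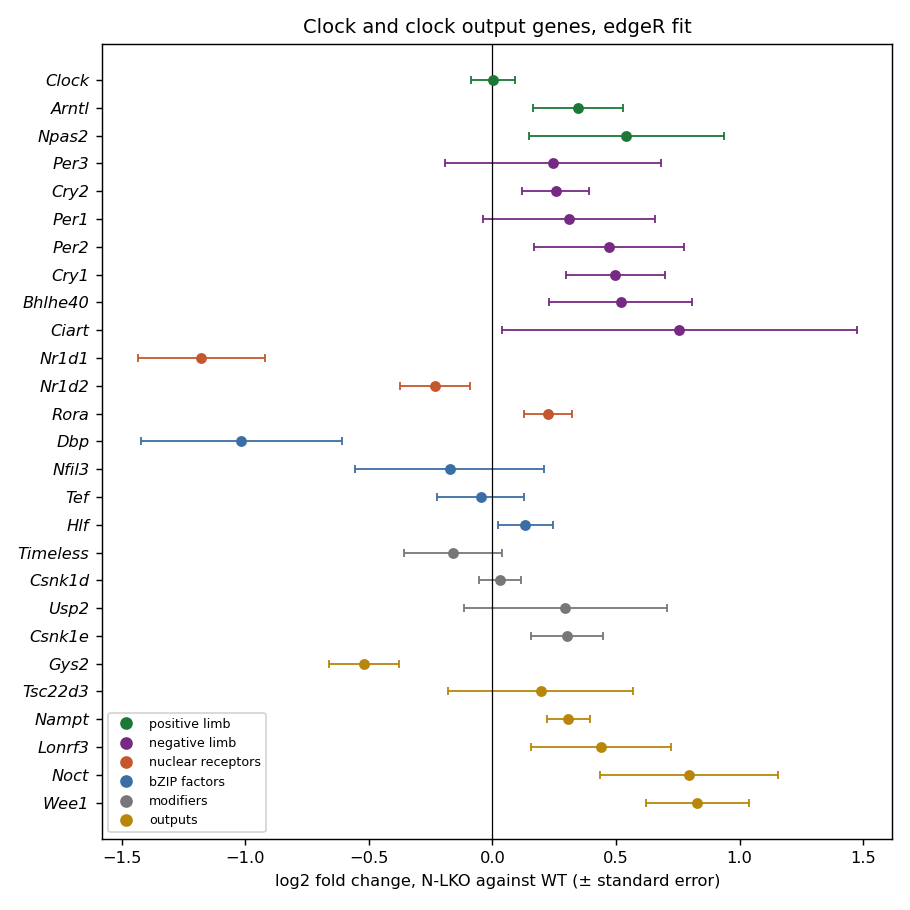
Log2 fold change of the 27 members tested, N-LKO against WT, from the edgeR fit, as points with bars of 1 standard error and colours by role. Nr1d1 at -1.18 and Dbp at -1.02 lie lowest, and the 7 negative limb genes (the Per and Cry genes, Ciart and Bhlhe40) lie to the right of 0 (Per3 was at -0.013 without WT 4).

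The sequences through which the loop is wired are shown for 6 members, Nr1d1, Cry1, Ciart, Per3, Arntl and Nfil3, in which at least 1 of 4 known motifs was found near the start of the gene. Each is a RefSeq promoter window on GRCm38.p6, 250 bases before to 50 after the start, written 5′ to 3′ on the strand of the gene. The capitals mark the matched letters.
Nr1d1: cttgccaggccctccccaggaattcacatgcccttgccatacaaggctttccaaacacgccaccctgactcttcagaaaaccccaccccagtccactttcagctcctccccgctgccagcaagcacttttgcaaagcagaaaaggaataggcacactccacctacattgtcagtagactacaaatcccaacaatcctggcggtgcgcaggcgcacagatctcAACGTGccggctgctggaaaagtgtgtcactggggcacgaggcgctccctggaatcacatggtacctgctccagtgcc
Cry1: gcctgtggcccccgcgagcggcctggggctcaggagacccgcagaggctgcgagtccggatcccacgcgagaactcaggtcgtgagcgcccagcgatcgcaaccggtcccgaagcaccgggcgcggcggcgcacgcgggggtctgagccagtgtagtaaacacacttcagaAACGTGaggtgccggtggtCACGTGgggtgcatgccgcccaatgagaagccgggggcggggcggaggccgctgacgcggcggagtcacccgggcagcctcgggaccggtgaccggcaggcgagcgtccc
Ciart: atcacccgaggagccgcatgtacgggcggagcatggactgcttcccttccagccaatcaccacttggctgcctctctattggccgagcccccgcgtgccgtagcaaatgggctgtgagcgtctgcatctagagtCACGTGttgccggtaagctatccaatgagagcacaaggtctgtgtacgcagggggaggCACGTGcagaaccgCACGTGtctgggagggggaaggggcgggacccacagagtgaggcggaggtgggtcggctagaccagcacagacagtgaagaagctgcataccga
Per3: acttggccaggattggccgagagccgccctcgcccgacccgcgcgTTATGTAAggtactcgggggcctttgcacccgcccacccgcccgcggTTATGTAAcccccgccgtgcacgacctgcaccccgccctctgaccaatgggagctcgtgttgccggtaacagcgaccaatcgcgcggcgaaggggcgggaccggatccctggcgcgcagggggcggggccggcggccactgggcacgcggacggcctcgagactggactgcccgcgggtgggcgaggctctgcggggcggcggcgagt
Arntl: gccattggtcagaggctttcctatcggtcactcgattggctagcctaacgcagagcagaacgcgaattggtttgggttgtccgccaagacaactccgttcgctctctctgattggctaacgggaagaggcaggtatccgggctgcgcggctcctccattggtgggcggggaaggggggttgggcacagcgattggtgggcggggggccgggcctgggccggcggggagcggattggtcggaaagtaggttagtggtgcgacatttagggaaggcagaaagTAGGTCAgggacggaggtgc
Nfil3: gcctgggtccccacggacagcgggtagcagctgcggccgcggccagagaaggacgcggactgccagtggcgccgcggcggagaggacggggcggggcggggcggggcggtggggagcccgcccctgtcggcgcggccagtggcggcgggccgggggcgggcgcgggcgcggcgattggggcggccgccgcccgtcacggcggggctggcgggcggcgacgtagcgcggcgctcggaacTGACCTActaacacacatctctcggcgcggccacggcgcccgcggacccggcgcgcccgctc

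In Nr1d1 (chr11:98775328-98775627, minus strand) the capitals are an E-prime box, CACGTT read on the other strand, 28 bases before the start. The Cry1 window (chr10:85185005-85185304, minus strand) held an E-prime box 79 bases and an E-box, CACGTG, 60 bases before the start. The Ciart window (chr3:95882179-95882478, minus strand) held 3 E-boxes, at 116, 58 and 44 bases before the start. The Per3 window (chr4:151044616-151044915, minus strand) held 2 copies of the D-box TTATGTAA, at 205 and 158 bases. Arntl (chr7:113207261-113207560, plus strand) had the ROR element TAGGTCA at base 30 after the start, and Nfil3 (chr13:52980990-52981289, minus strand) had it on the other strand 12 bases before.

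RefSeq windows were matched for 23 of the 28 members, 33 windows in all, and both strands were searched. None was matched for Per2, Bhlhe40, Csnk1d, Wee1 and Gys2. The E-box CACGTG was in 7 of the 33 windows, from 6 members (Bhlhe41, Ciart, Cry1, Lonrf3, Per1 and Tef), and in 7.15% of the 32851 windows of all genes. The E-prime box CACGTT was in 3 of the 33, those of Cry1, Cry2 and Nr1d1, and in 4.68% of all windows. The D-box, searched as TTATGTAA or TTACGTAA, was in 2 of the 33, those of Per3 and Timeless, and in 1.06% of all windows. The ROR element TAGGTCA was in 2 of the 33, those of Arntl and Nfil3, and in 2.61% of all windows. A match is a description of the letters and not of binding.

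Among the nuclear receptors, Nr1d1 and Rora differed in direction. Nr1d1 (chr11:98767932-98775333, minus strand, protein coding) encodes REV-ERBα, a heme-binding repressor of Arntl. Its level was 24.6, 32.7, 32.7 and 19.8 CPM in WT livers 1 to 4 and 7.88, 9.64, 11.7 and 19.4 CPM in N-LKO livers 1 to 4. All 4 N-LKO livers lay below the lowest WT liver, but N-LKO 4 lay just under WT 4. The N-LKO mean was 44.3% of the WT mean, a log2 change of -1.18 (SE 0.257, unadjusted p = 0.000831, adjusted p = 0.0632, edgeR). Of all genes tested, it was number 187 by p. DESeq2 gave it an adjusted p of 0.000381 and limma-voom one of 0.0523. Without N-LKO 4 the log2 change was -1.49 and the edgeR adjusted p 0.0129. In the other fits that left out a mouse, the edgeR adjusted p ran from 0.0713 (without WT 4) to 0.180 (without N-LKO 3).

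Nr1d2, the paralogue with the same targets, averaged 63.2 ± 10.2 CPM in WT and 53.7 ± 9.18 CPM in N-LKO (SD, n = 4), a log2 change of -0.23 (SE 0.142, unadjusted p = 0.128, edgeR), which was -0.13 without WT 2 and -0.12 without N-LKO 3. The difference between the 2 paralogues was taken within each liver, as log2 CPM of Nr1d2 minus that of Nr1d1. It was 1.22 ± 0.42 in WT and 2.20 ± 0.69 in N-LKO livers (SD, n = 4), and the ranges overlapped through WT 4 and N-LKO 4. Rora (chr9:68653786-69388246, plus strand), the activator at the same elements, was at 132.3, 135, 136 and 128 CPM in WT livers and at 143, 189, 149 and 140 CPM in N-LKO livers. Every N-LKO liver was above every WT liver, and N-LKO 2 was well above the other 3. The log2 change was 0.22 (SE 0.0971, unadjusted p = 0.0416, adjusted p = 0.369, edgeR), and 0.12 without N-LKO 2 (unadjusted p = 0.103, edgeR). The unadjusted p of Rora was also above 0.05 without any 1 of the WT livers.

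No source used here says that reads were counted by strand, and the exons of several members overlap a gene on the opposite strand. Thra shares 263 bases (8.55%) with the exons of Nr1d1, and its level was 12.8 ± 1.91 CPM in WT and 12.7 ± 0.852 CPM in N-LKO livers (SD, n = 4). Sphk2 shares 539 bases (18.0%) with those of Dbp, at 35.3 ± 2.03 and 32.2 ± 6.21 CPM (SD, n = 4). The levels of Nr1d1 and Dbp are uncertain by what these overlaps can add. The exons of Arntl, Bhlhe40, Bhlhe41, Cry2, Csnk1d, Csnk1e, Rora, Tef, Timeless and Usp2 also overlap an opposite-strand gene.

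Dbp was the lowest of the 4 bZIP factors relative to WT. It (chr7:45705088-45710203, plus strand) activates genes with D-boxes and is a direct target of Arntl and Clock. Its level was 2.40, 7.88, 5.90 and 2.98 CPM in WT livers 1 to 4 and 3.01, 2.77, 2.52 and 1.02 CPM in N-LKO livers 1 to 4. WT 2 and WT 3 were high, while WT 1 and WT 4 lay among the N-LKO livers. This gave a log2 change of -1.02 (SE 0.406, unadjusted p = 0.0296, adjusted p = 0.322, edgeR), and -0.67 without WT 2. For the other activators of this family it was smaller than 2 SE, at -0.047 (SE 0.176) for Tef and 0.13 (SE 0.110) for Hlf. Nfil3, the repressor at D-boxes, was at 55.8, 13.2, 20.3 and 19.4 CPM in WT livers and at 23.5, 16.5, 26.7 and 30.1 CPM in N-LKO livers. WT 1 alone set its WT mean above the N-LKO mean, and the log2 change of -0.17 became 0.46 without WT 1.

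**Figure D2:**
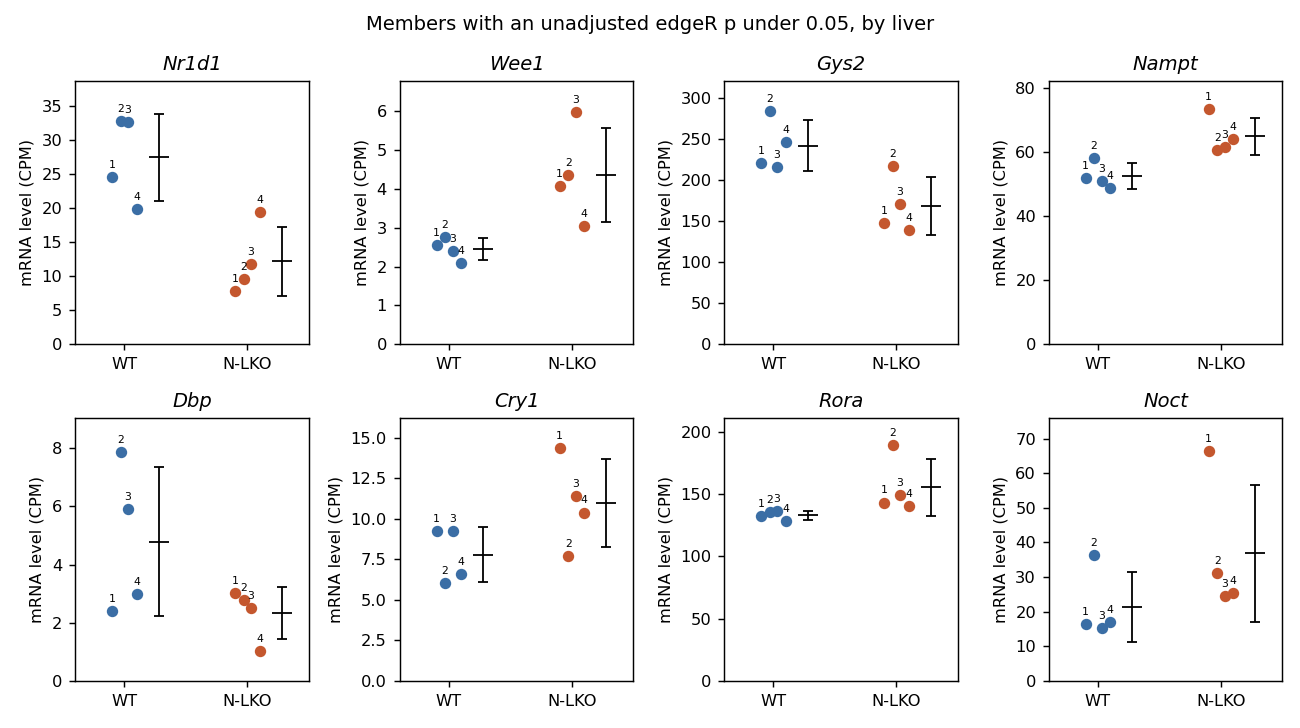
Level in CPM of the 8 members with an unadjusted edgeR p under 0.05, each point 1 liver with its number, and the mean with SD to the right of each group (n = 4). Nr1d1, Wee1, Nampt and Rora show no overlap between genotypes, and in Dbp, Cry1, Gys2 and Noct the ranges overlap.

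In the positive limb, none of Arntl, Clock and Npas2 had an unadjusted p under 0.05. Arntl was at 22.2, 11.8, 14.96 and 17.1 CPM in WT livers and 23.1, 17.95, 25.01 and 17.9 CPM in N-LKO livers. Its log2 change was 0.35 (SE 0.183, unadjusted p = 0.0861, edgeR), and WT 1 lay within the N-LKO range. It was 0.21 without WT 2 and 0.52 without WT 1. Npas2, which can take the place of Clock, had a log2 change of 0.54 (SE 0.394), with WT livers from 1.31 to 6.25 CPM and N-LKO livers from 3.60 to 5.44 CPM, and the change was 1.18 without WT 1. Clock averaged 97.6 ± 2.78 CPM in WT and 97.8 ± 11.98 CPM in N-LKO (SD, n = 4), a log2 change of 0.0031 (SE 0.0890) whose sign changed with the scaling.

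The 7 genes tested of the negative limb, the Per and Cry genes, Ciart and Bhlhe40, had a positive log2 change, from 0.25 for Per3 to 0.76 for Ciart, though that of Per3 became -0.013 without WT 4. Cry1 (chr10:85131700-85185064, minus strand), the stronger repressor of the Cry pair in the core loop, was the member of this group with an unadjusted p under 0.05. Its level was 9.24, 6.07, 9.26 and 6.57 CPM in WT livers 1 to 4 and 14.3, 7.72, 11.4 and 10.4 CPM in N-LKO livers 1 to 4. N-LKO 2 lay within the WT range and the other 3 N-LKO livers above it. The log2 change was 0.50 (SE 0.200, unadjusted p = 0.0310, adjusted p = 0.328, edgeR). It was 0.34 without N-LKO 1 (unadjusted p = 0.116, edgeR) and 0.64 without N-LKO 2. The unadjusted p was also above 0.05 without WT 2, WT 4 or N-LKO 3.

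For the other negative limb genes no unadjusted p was under 0.05. Per1 had a log2 change of 0.31 (SE 0.347), Per2 of 0.47 (SE 0.303) and Per3 of 0.25 (SE 0.438). Per2 ranged from 1.98 to 7.75 CPM in WT livers and from 6.60 to 7.88 CPM in N-LKO livers. Cry2 had a log2 change of 0.26 (SE 0.137) and Bhlhe40, which competes for E-boxes, of 0.52 (SE 0.289). Ciart, which binds and represses the Arntl complex, had the widest spread, from 0.221 CPM in WT 4 to 3.502 CPM in WT 2, or 4 to 56 counts. Its log2 change of 0.76 had an SE of 0.717, and it was 2.32 without WT 2 and 0.28 without N-LKO 1. The Per1 value became 0.023 without WT 3, and that of Per2 0.19 without WT 1. Without N-LKO 1, the log2 change was 0.27 for Bhlhe40 and 0.15 for Cry2, and that of Bhlhe40 was 0.82 without WT 1.

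The modifiers act on the stability of clock proteins or their neighbours. Csnk1d and Csnk1e, kinases that mark the Per proteins for decay, had log2 changes of 0.031 (SE 0.0852) and 0.30 (SE 0.146). Usp2, a rhythmic deubiquitinase, had 0.29 (SE 0.410) and ranged from 3.47 to 13.9 CPM in WT livers. Timeless, which acts in DNA replication, had -0.16 (SE 0.198). No unadjusted p in this group was under 0.05.

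Among the 6 outputs, 4 had an unadjusted p under 0.05. Wee1 (chr7:110122046-110143286, plus strand), the kinase that holds back entry into mitosis, was at 2.56, 2.75, 2.41 and 2.10 CPM in WT livers 1 to 4 and 4.08, 4.36, 5.97 and 3.06 CPM in N-LKO livers 1 to 4. All N-LKO livers lay above all WT livers. This gave a log2 change of 0.83 (SE 0.210, unadjusted p = 0.00236, adjusted p = 0.112, edgeR). DESeq2 gave an adjusted p of 0.0365 and limma-voom one of 0.149. In the edgeR fits that left out a mouse, the adjusted p ran from 0.0570 (without N-LKO 4) to 0.265 (without N-LKO 3).

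Gys2 (chr6:142422613-142473109, minus strand), the glycogen synthase of the liver, was at 222, 285, 216 and 247 CPM in WT livers and 148, 218, 171 and 139 CPM in N-LKO livers. N-LKO 2 overlapped with WT 3, and the other 3 N-LKO livers lay below every WT liver. Its log2 change was -0.52 (SE 0.142, unadjusted p = 0.00391, adjusted p = 0.142, edgeR). The adjusted p was 0.0300 without N-LKO 2 (edgeR), 0.0227 in DESeq2 and 0.134 in limma-voom. In the other edgeR fits that left out a mouse, it ran from 0.149 (without WT 1) to 0.288 (without N-LKO 3). Nampt (chr12:32819545-32853349, plus strand), the rate-limiting enzyme of NAD salvage, was at 52.1, 58.3, 50.9 and 48.8 CPM in WT livers and 73.5, 60.6, 61.7 and 64.0 CPM in N-LKO livers. The groups did not overlap, and the log2 change was 0.31 (SE 0.0857, unadjusted p = 0.00441, adjusted p = 0.152, edgeR).

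Noct (chr3:51224447-51251644, plus strand), a rhythmic phosphatase of NADP cofactors also known as nocturnin, was at 16.4, 36.5, 15.2 and 17.1 CPM in WT livers and 66.3, 31.2, 24.6 and 25.3 CPM in N-LKO livers. WT 2 lay above 3 of the N-LKO livers, and N-LKO 1 stood highest. The log2 change was 0.80 (SE 0.360, unadjusted p = 0.0496, adjusted p = 0.391, edgeR), 0.34 without N-LKO 1 and 1.18 without WT 2. Tsc22d3, a target of the glucocorticoid receptor, had 0.20 (SE 0.374), with 55.8 to 182 CPM in WT and 72.5 to 187 CPM in N-LKO livers. Lonrf3 had 0.44 (SE 0.285).

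Levels per length differed widely between the members. In WT livers Gys2 was highest at 91.3 CPM per kb of exon, followed by Tsc22d3 at 24.7 CPM per kb. Nr1d1 was at 8.92, Arntl at 2.19 and Dbp at 1.60 CPM per kb, and Bhlhe41 was lowest at 0.0521 CPM per kb.

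The SD of log2 CPM among WT livers was above the median of all genes for 18 of 27 members, and among N-LKO livers for 22. The highest WT liver was more than 2 times the lowest for 12 of 27 members (44.4%), where 14.4% of all genes tested showed this, and in N-LKO livers for 8 members (29.6%), where 15.1% of all genes did. The median SD of log2 CPM among WT livers was 0.35 for members and 0.18 for all genes, and among N-LKO livers 0.32 and 0.19. WT 2 was the highest of all 8 livers for 9 members, Per3, Nr1d1, Nr1d2, Dbp, Tef, Ciart, Usp2, Csnk1d and Gys2, and the lowest for Arntl, Npas2, Cry1, Nfil3 and Lonrf3. N-LKO 1 was the highest for 8 members, among them Per1, Cry1, Cry2, Bhlhe40 and Noct, and the lowest for Clock and Nr1d1.

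**Figure D3:**
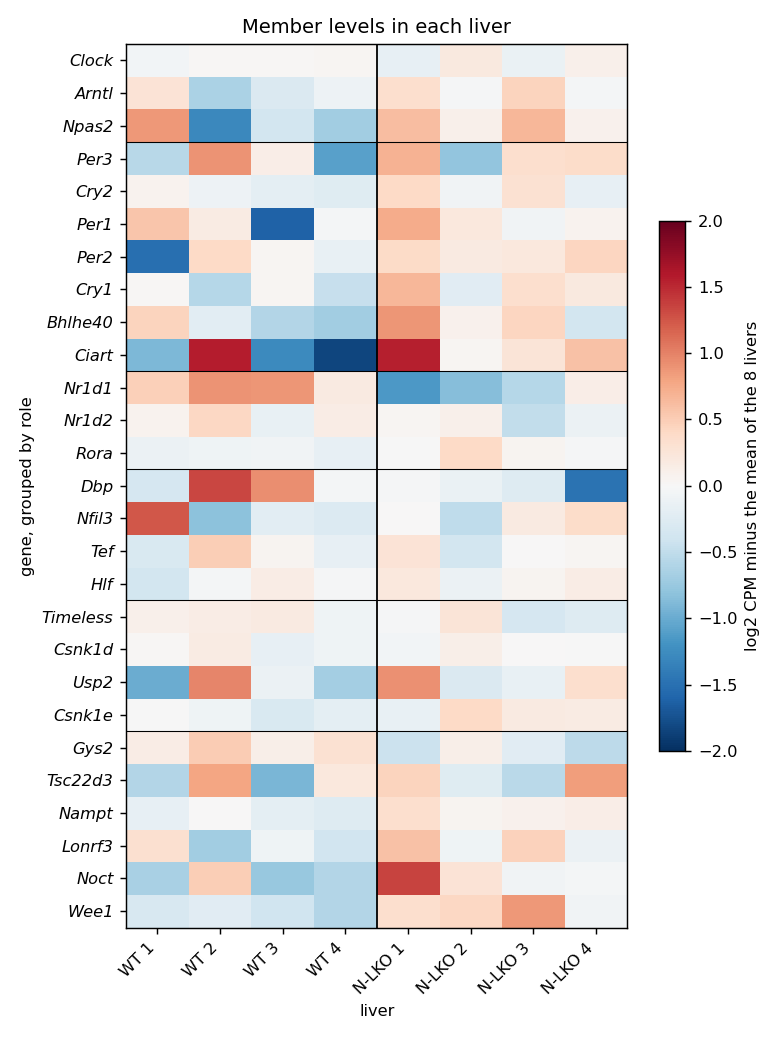
Log2 CPM of the 27 members in each liver, minus the mean of the 8 livers, with genes in rows by role and the genotypes separated by a vertical line. WT 2 is red for Dbp, Ciart and Usp2 and blue for Arntl and Npas2, and Nr1d1 is below its mean in N-LKO 1, 2 and 3.

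The members were also read by their known phase in mouse liver. The 5 that share the phase of Arntl (Arntl, Clock, Npas2, Cry1 and Nfil3) had a median log2 change of 0.35 in N-LKO against WT, with 4 positive and 1 negative. A second set held the 11 tested with phases from Nr1d1 to Per2 (Per1, Per2, Per3, Nr1d1, Nr1d2, Dbp, Tef, Hlf, Ciart, Usp2 and Wee1). Its median was 0.25, with 7 positive and 4 negative, from -1.18 for Nr1d1 to 0.83 for Wee1. This set does not hold 1 single phase. Its median pools Nr1d1, Dbp (-1.02) and Nr1d2 (-0.23) with the later Per1 (0.31), Per2 (0.47) and Per3 (0.25). The first median ran from 0.21 (without WT 2) to 0.52 (without WT 1), and the second was 0.043 without N-LKO 1, 0.065 without WT 1, 0.12 without WT 4 and 0.38 without WT 2. Between livers of 1 genotype, the medians of the sets had opposite signs in 5 of 6 pairs of WT livers and in 3 of 6 pairs of N-LKO livers. From WT 1 to WT 2, 4 of the 5 were lower (median difference in log2 CPM -0.91) and 10 of the 11 were higher (median 0.80, up to 2.47 for Ciart). Whether the genotypes differed in clock phase was not tested, since each group holds livers without a collection time.

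The difference between 2 members within a liver shows how single genes of the second set lay against Arntl. Log2 CPM of Arntl minus that of Nr1d1 was -0.15, -1.47, -1.12 and -0.21 in WT livers 1 to 4 and 1.54, 0.89, 1.083 and -0.12 in N-LKO livers 1 to 4. The groups did not overlap, with N-LKO 4 next to WT 1, and the means differed by 1.59. Cry1 minus Nr1d1 did not overlap either, and differed by 1.70. Both differences hold Nr1d1, whose own values did not overlap, while those of Arntl and of Cry1 alone did. They are therefore not observations separate from that of Nr1d1, and no share over other gene pairs was counted. Npas2 minus Nr1d1 differed by 1.96 with overlap. Arntl minus Dbp differed by 1.31 with overlap. For 4 further genes of the second set, taken against Arntl, the means differed by -0.23 for Per2, -0.84 for Ciart, -0.036 for Usp2 and 0.40 for Tef, all with overlap.

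**Figure D4:**
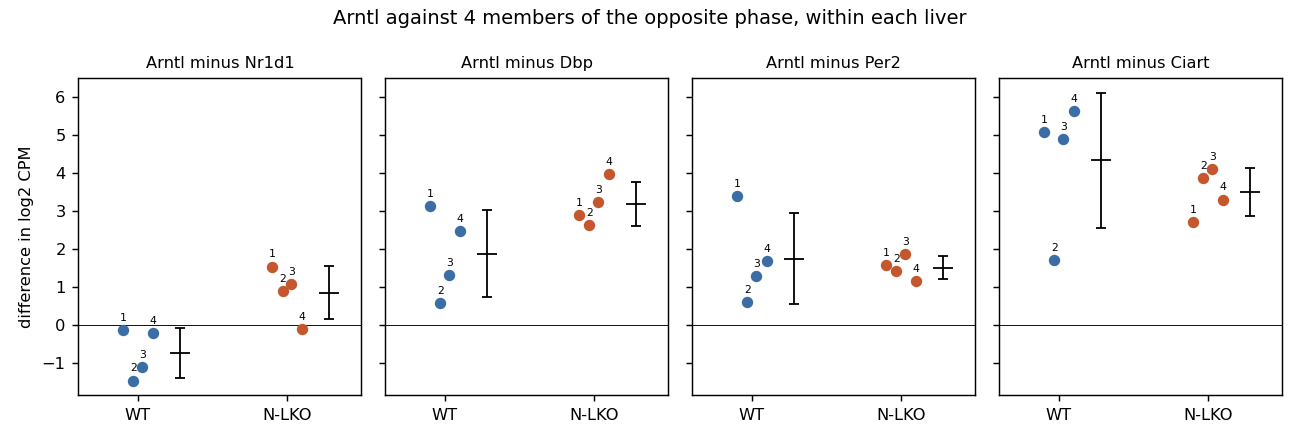
Log2 CPM of Arntl minus that of Nr1d1, Dbp, Per2 and Ciart in each liver, points numbered by liver, with the mean and SD to the right (n = 4). The genotypes are apart for Nr1d1, whose own values also did not overlap, and overlap for the other 3.

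Other parts of the clock machinery were looked at in a list of 30 genes, of which 28 were tested, with kinases, ubiquitin ligases, corepressors and coactivators. None had an adjusted p under 0.05 in the edgeR test, and 0 by DESeq2 or limma-voom. At an unadjusted p under 0.05 there was 1 gene (3.57%), where 12.8% of all genes stood. The log2 changes were positive for 15 and negative for 13, with a median of 0.0085.

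In 14 further rhythmic liver genes, 1 passed the test of edgeR, where 1.04% of all genes did. At an unadjusted p under 0.05 there were 3 (21.4%), where 12.8% of all genes stood. Cdkn1a, the cell cycle inhibitor p21, rose from 47.8 ± 7.22 to 71.9 ± 3.05 CPM (SD, n = 4), or by 0.59 on the log2 scale (SE 0.103, adjusted p = 0.0224, edgeR), but its adjusted p was above 0.05 in 6 of the 8 fits that left out a liver, at most 0.0679. Cyp2a5, a coumarin hydroxylase whose rhythm depends on the D-box factors, had a log2 change of 1.06 (SE 0.296, adjusted p = 0.152, edgeR). Cyp7a1, the rate-limiting enzyme of bile acid synthesis, had 0.69 (SE 0.288, adjusted p = 0.346, edgeR).

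Among markers of other liver cells, the sums for cholangiocytes and for fibroblasts and stellate cells were higher in N-LKO livers. The 7 cholangiocyte markers listed summed to 23.4 to 45.6 CPM in WT and 52.6 to 134 CPM in N-LKO livers, and 2 of 4 tested (Epcam and Spp1) rose in the edgeR test, where DESeq2 called 3 and limma-voom 0. The 9 fibroblast and stellate cell markers summed to 162 to 222 CPM in WT and 235 to 337 CPM in N-LKO livers, and 2 of 8 tested (Col1a1 and Lum) rose in the edgeR test, where DESeq2 called 4 and limma-voom 1. Of these 4, only Lum had an edgeR adjusted p under 0.05 in every fit that left out a liver. Of all genes tested, edgeR called 0.823% higher. The largest part of the cholangiocyte sum was Spp1 (means of 23.9 CPM in WT and 68.1 CPM in N-LKO), and that of the stellate sum Dcn (143 and 193 CPM). Not every marker was higher. Lrat had a log2 change of -0.15. Krt7 (means of 0.362 and 0.357 CPM) and Muc1 (0.531 and 0.379 CPM) were not tested. Sums of macrophage markers (66.8 to 123 and 70.1 to 124 CPM), endothelial markers (154 to 185 and 144.1 to 169 CPM) and lymphocyte markers (8.05 to 14.68 and 8.11 to 11.9 CPM) overlapped, and no marker was at 0 in all livers. In whole liver, more cells of a type and more RNA per cell (or fewer and less) cannot be told apart, and the part of these cells in the values of the clock genes was not tested.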

How the data were processed

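Libraries were made from liver RNA after rRNA removal. The authors deposited expected counts per gene, which need not be whole (52.3% of genes had a value with decimals). The labels name STAR, Partek and mm9, and the study's methods name TopHat2 and cuffdiff. The deposited gene starts matched GENCODE M21 on GRCm38 for 27 of 28 members. All coordinates given here are on GRCm38.

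Livers were assigned to WT or N-LKO from their labels and are numbered by the replicate in the sample title. The names of the count columns carry another number, called here the library number. It was 4, 2, 1 and 3 for WT livers 1 to 4 and 1, 3, 4 and 2 for N-LKO livers 1 to 4. Counts were rounded and filtered by edgeR's filterByExpr (minimum count 10, minimum total 15), scaled by TMM, and fitted in R 4.3.3 by glmQLFit and glmQLFTest of edgeR 4.0.16, with genotype as the only term and Benjamini-Hochberg adjustment over all genes. Log2 CPM used a prior count of 2. The test was checked on simulated counts. Replicates differed by more than sampling noise, and the p-values set the genotype difference against the spread between these mice.

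The members and gene lists were chosen with earlier results of these data known. All members were named, and those with an unadjusted p under 0.05 or no overlap were given in every liver. From each other list, at most 4 genes with an unadjusted p under 0.05 were eligible to be named. Fkbp5, Hspa1b, Hspa8, Cirbp, Rbm3, Dcn, Lrat, Krt7 and Muc1 were added outside this rule after their values were seen. Alternatives were RLE scaling, library totals, no low-count filter, a minimum of 10 counts in each liver, a block by title or by library number, limma-voom 3.58.1, DESeq2 1.42.0, a prior count of 0.5 and fits without each mouse. The values of 1 gene outside the members are not reported here.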

Additional observations from a re-analysis of the deposited data

Results flagged for a closer look

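In groups of 4 livers, a value far from the other 3 by Dixon's test at its 95% limit was found in 3 of the 58 groups looked at, where chance gives about 2.9. Dbp was at 0.19 log2 CPM in N-LKO 4, below the other N-LKO livers at 1.40 to 1.64. Noct was at 5.19 log2 CPM in WT 2, above the other WT livers at 3.94 to 4.11. Nus1 was at 6.36 log2 CPM in WT 1, below the other WT livers at 6.489 to 6.502.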

How the results depend on the processing

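Of the 27 members, 20 kept their direction in all other fits that held them (16, but 15 for Ciart). Without some mouse the log2 fold change moved by over 1.5 times for 21 members, and for the other 6 (Nr1d1, Wee1, Gys2, Nampt, Cry1 and Csnk1e) it did not. The number of all genes called was 148, and it was 98 with at least 10 counts in every mouse, 394 in DESeq2 and 71 to 173 with a mouse left out (71 without WT 4, 76 without N-LKO 3, 83 without WT 2 and 91 without WT 3). The number of members called was 0, but 1 without a filter (Nr1d1), 1 with the library number as a replicate block (Nr1d1) and 3 in DESeq2. It was 0 to 1 with a mouse left out, with Gys2 called without N-LKO 2 and Nr1d1 without N-LKO 4. Members with an unadjusted p under 0.05 numbered 8, and 5 to 10 with a mouse left out, the 5 without WT 4. The samples of the same number did not deviate together (correlations of -0.085 to 0.062 for title numbers and -0.0092 to 0.17 for library numbers), so the numbers were not taken to pair the mice. With the title number as a block 12 members reached an unadjusted p under 0.05, with 0 called. The number was 8 without a filter, and 7 with RLE scaling, library totals, at least 10 counts, the library block, DESeq2 or limma-voom. Noct was above the limit with RLE scaling, at least 10 counts, the library block and DESeq2. Rora was above it with library totals and the library block, and Dbp with the library block and limma-voom. The share of all genes at an unadjusted p under 0.05 was counted in the main fit alone. The member numbers at that limit in the other fits therefore have no background to be read against.

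The log2 fold change of Clock was 0.0031, and -0.029 by library totals, -0.0058 without a filter, -0.0041 with either block and -0.0042 in limma-voom. That of Nfil3 was -0.17, and 0.015 with the title block, 0.00093 with the library block and 0.0067 in limma-voom. With a mouse left out, the range was -0.061 to 0.056 for Clock, -0.40 to 0.46 for Nfil3, -0.013 to 0.73 for Per3, -0.15 to 0.13 for Tef, -0.0087 to 0.86 for Usp2, -0.019 to 0.096 for Csnk1d and -0.078 to 0.57 for Tsc22d3. The cause was not tested. Depth limits Bhlhe41, Ciart and other members with few counts.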

Other observations

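Genes that follow hormones, body temperature and meals were read beside the clock. Of 8 glucocorticoid targets, 0 had an unadjusted p under 0.05 in the edgeR test or were called by DESeq2 or limma-voom, and 6 had a positive log2 fold change. Fkbp5, named after its values were seen, was highest in N-LKO 4 at 119 CPM and in WT 2 at 82.4 CPM, the livers in which Tsc22d3 was also highest in each group. Of 8 temperature and heat shock genes, 0 reached an unadjusted p under 0.05, with 0 called by DESeq2 or limma-voom. Within both genotypes some of these genes varied between livers, while Hspa8 stayed within 619 CPM (N-LKO 3) to 765 CPM (N-LKO 1). Hspa1b, a heat shock chaperone, was at 5.88, 27.1, 33.4 and 26.9 CPM in WT livers 1 to 4 and 7.99, 31.0, 9.62 and 24.5 CPM in N-LKO livers 1 to 4. Cirbp, a cold-inducible RNA-binding protein, was highest in the 3 livers where Hspa1b was lowest, at 26.9 CPM in WT 1, 25.5 in N-LKO 1 and 26.1 in N-LKO 3. Arntl was also highest in these 3 livers. Rbm3, of the same list, did not have this order, with WT 2 at 64.2 CPM above N-LKO 3 at 61.4 CPM. Hspa1b, Hspa8, Cirbp and Rbm3 were named after their values were seen.

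Of 13 fasting and feeding genes tested, edgeR called 1, DESeq2 3 and limma-voom 1, where they called 1.04%, 2.43% and 0.886% of all genes. The values of 3 (23.1%) did not overlap between genotypes, where 7.52% of all genes did not. Fgf21, a hormone of the fasted liver, fell from 4.75 ± 0.469 to 2.48 ± 0.408 CPM (SD, n = 4, adjusted p = 0.0224, edgeR), above 0.05 in 6 of the 8 fits that left out a liver. Srebf1 and Fasn, of fatty acid synthesis, had log2 fold changes of 0.80 and 0.40 (adjusted p = 0.161 and 0.122, edgeR).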
